A study of Mus musculus with 24 samples.

Results

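The comparison covered the barcodes of blood monocytes and blood neutrophils, 3 samples of each, 6 of the 24 samples of the series. Samples were chosen by their labelled cell type and paired by the mouse number in the label, 1 pair from each of 3 mice. Haematopoietic stem cells isolated from C57BL/6 bone marrow had been cultured, infected 5 days after plating with the lentiviral barcode library pBC008, and sorted 4 days after infection as GFP+ cells of the lineage-negative, Sca1+ cKit+ type. Male CD45.2 recipients aged 5 weeks received them with CD45.2+ rescue cells of the Lin- cKit+ Sca1- type after whole-body irradiation with 9 Gy. Monocytes and neutrophils came from blood taken 2 months later, when B and T cells, renal M1 and M2 macrophages and cardiac Ccr2hi and Ccr2lo macrophages of the same mice were also sorted. All 6 samples share strain, treatment and time, so the cell type is the difference between the groups. The labels do not give the surface markers or cell numbers of the blood sorts, and DNA barcodes hold no expression by which the labelled cell types could be checked. Recipient and rescue cells without a barcode gave no reads.

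Monocytes and neutrophils are the circulating myeloid cells that descend from granulocyte and monocyte progenitors in the bone marrow. Neutrophils live for hours to days and are replaced continuously, and monocytes circulate briefly before many enter tissues and become macrophages or dendritic cells. A lentivirus integrates into the genome of the cell it infects, so all descendants of a barcoded stem cell carry its barcode, and the share of reads with a barcode measures the size of that clone among the barcoded cells of a population. More cells of a clone and more integrated copies in each cell cannot be told apart in these reads. A clone here means the cells that carry the same barcode. Whether different barcodes came from the same founder cell was not tested, so counts of clones are counts of barcodes.

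The 6 samples held 6808221 to 11436010 reads and 10660 to 15786 distinct sequences of 52 bases, of which 48.6% to 52.01% had 1 read. Sequences at 0.01% of reads or above, which is 681 to 1144 reads, held 98.3% to 98.6% of all reads, and this level was taken as presence. A barcode with no reads could still have had a share of up to 2.62e-05% in the deepest sample and 4.41e-05% in the shallowest, the level of 3 reads. The reads carry no molecular identifiers, so intervals and such limits cover counting error only. Shares are counts divided by the sample's total. The barcodes are synthetic and have no genome position.

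The barcodes on which the results turn are shown 5′ to 3′ as the read counts list them. Most follow a pattern in which G or C alternates with A or T, and capitals mark a base off that pattern. The number in a name is the mouse. The leading 3 barcodes of each mouse, by the mean share over both populations, come first.
1a: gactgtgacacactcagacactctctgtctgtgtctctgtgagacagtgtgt
1b: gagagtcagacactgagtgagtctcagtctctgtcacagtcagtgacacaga
1c: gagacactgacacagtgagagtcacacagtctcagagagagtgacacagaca
2a: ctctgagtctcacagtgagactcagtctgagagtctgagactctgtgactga
2b: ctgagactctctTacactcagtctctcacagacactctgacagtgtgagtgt
2c: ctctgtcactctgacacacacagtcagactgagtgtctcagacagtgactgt
3a: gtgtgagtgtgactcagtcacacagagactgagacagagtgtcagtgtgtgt
3b: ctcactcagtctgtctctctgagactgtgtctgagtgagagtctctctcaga
3c: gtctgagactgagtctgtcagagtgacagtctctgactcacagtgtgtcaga

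The next set holds the 7 barcodes over 4-fold higher in monocytes by the folds defined below, all of mouse 1. The first 3 follow the naming rule (highest monocyte share), and the other four were added after their values were seen so that the set is whole.
1d: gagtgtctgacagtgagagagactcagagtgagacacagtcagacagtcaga
1e: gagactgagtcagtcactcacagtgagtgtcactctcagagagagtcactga
1f: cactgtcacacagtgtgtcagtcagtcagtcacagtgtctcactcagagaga
1g: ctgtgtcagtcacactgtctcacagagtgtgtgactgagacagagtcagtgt
1h: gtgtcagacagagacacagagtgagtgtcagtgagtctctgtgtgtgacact
1i: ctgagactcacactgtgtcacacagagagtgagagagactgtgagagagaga
1j: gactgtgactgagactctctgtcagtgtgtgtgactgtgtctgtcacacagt

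The last set shows the barcodes nearest to that level from below, 1 per mouse, and then the barcode most tilted to neutrophils in each mouse. All of these were chosen after their values were seen.
1k: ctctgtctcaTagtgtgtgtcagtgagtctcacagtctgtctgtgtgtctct
2d: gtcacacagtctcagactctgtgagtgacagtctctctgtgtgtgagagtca
3d: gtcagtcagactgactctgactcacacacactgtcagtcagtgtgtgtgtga
1l: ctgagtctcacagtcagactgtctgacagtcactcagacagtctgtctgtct
2e: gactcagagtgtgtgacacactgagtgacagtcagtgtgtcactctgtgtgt
3e: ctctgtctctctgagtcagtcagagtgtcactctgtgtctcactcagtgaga

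Both populations were dominated by the same few barcodes. In mouse 1 the barcode 1a was the most abundant of either population, with 9.57% of monocyte reads (95% Wilson interval 9.55% to 9.59%) and 10.7% of neutrophil reads (10.7% to 10.8%). Barcode 1b held 8.96% of monocyte and 10.6% of neutrophil reads, and barcode 1c held 8.11% of monocyte and 9.49% of neutrophil reads. All 3 were lower in monocytes, with neutrophil shares 1.12-fold, 1.18-fold and 1.17-fold higher. Barcodes 1b and 1c were also at like levels in B cells (4.30% and 4.79%) and in T cells (0.362% and 0.403%). Whether they mark separate founder cells was not tested.

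In mouse 2 the barcode 2a led with 11.6% of monocyte and 12.6% of neutrophil reads. Barcode 2b, whose sequence has 1 base off the pattern, held 10.0% of monocyte and 10.4% of neutrophil reads. Barcode 2c held 10.6% of monocyte and 9.51% of neutrophil reads, so 2b and 2c changed places between the populations. In mouse 3 the first and second barcodes changed places: 3a held 18.0% of monocyte and 14.7% of neutrophil reads, and 3b held 13.8% of monocyte and 15.6% of neutrophil reads. Barcode 3c came next in both, with 9.65% of monocyte and 10.04% of neutrophil reads. Of the 10 most abundant barcodes of monocytes, 10, 9 and 9 in mice 1, 2 and 3 were also among the 10 most abundant of neutrophils.

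The sizes of the leading clones were alike in the 2 populations within each mouse. The most abundant barcode held 9.57%, 11.6% and 18.0% of monocyte reads in mice 1 to 3, against 10.7%, 12.6% and 15.6% of neutrophil reads. Monocytes were lower in mice 1 and 2 and higher in mouse 3, and the groups overlapped (mean difference 0.120 percentage points, SD 2.02, n = 3 mice, two-sided exact permutation p = 1). The 10 most abundant held 62.3%, 65.7% and 75.4% of monocyte reads, against 68.8%, 68.3% and 74.96% of neutrophil reads. The mean difference was -2.93 percentage points (SD 3.52, n = 3 mice, exact permutation p = 0.6), with monocytes higher in 1 of 3 mice. Permutations of 3 samples against 3 cannot give a p below 0.1, so none of these tests could reach 0.05, and all p-values adjusted over the 13 tests by the Benjamini-Hochberg method lay between 0.91 and 1.

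Reads were concentrated in few barcodes. It took 7, 6 and 4 barcodes to hold 50% of the monocyte reads in mice 1 to 3, and 6, 6 and 5 for the neutrophil reads. For 90% of the reads it took 42, 26 and 21 barcodes in monocytes, against 28, 22 and 20 in neutrophils. The 90% mark thus needed more barcodes in monocytes of each mouse. Barcodes with at least 1% of reads numbered 19, 18 and 17 in monocytes and 20, 18 and 18 in neutrophils.

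**Figure D1:**
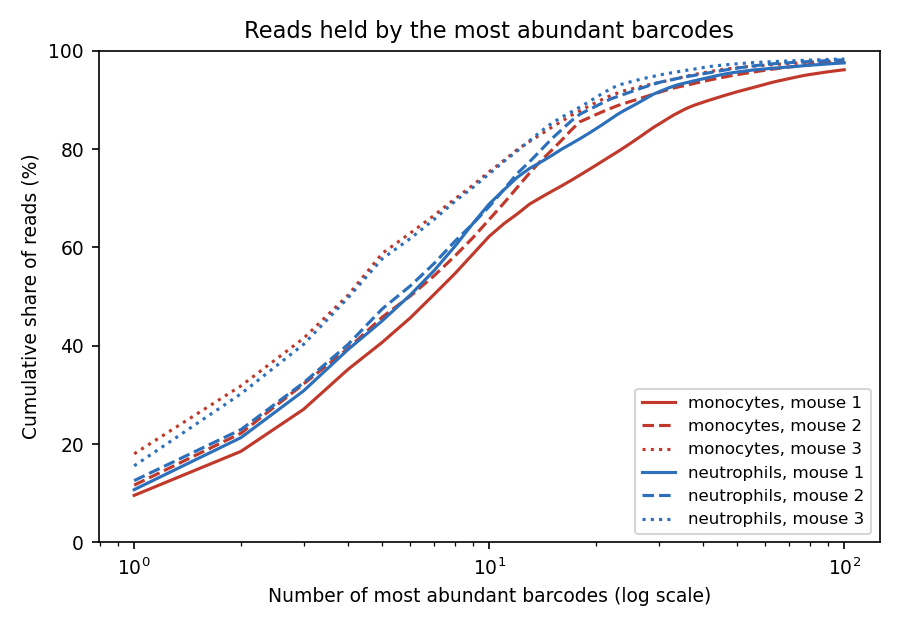
Cumulative share of reads (y axis, percent) against the number of most abundant barcodes (x axis, log scale) for the 3 monocyte samples (red) and the 3 neutrophil samples (blue), with 1 line style per mouse. The lines of a mouse run close together, and the monocytes of mouse 1 lie lowest, at 62.3% for 10 barcodes.

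Monocytes held more barcodes than neutrophils in each mouse at the level taken as presence. Barcodes at 0.01% or more numbered 229, 148 and 134 in monocytes of mice 1 to 3, against 156, 121 and 108 in neutrophils. The ratio was 1.47, 1.22 and 1.24 in the 3 mice, with a ratio of geometric means of 1.31 (exact permutation p = 0.3, two-sided). The ranges of the groups overlapped. The ratio depended on the level taken as presence, at 1.19 with 0.1% of reads and 1.01 with 0.001%. At 0.001% monocytes were higher in 2 of 3 mice. The effective number (exponential of the Shannon entropy) is the number of equally large clones that would give the same diversity. It was 42.4, 30.9 and 23.0 in monocytes and 31.3, 27.9 and 22.4 in neutrophils, higher in monocytes of 3 of 3 mice by a ratio of 1.16 (exact permutation p = 0.5). Exact sign-flip permutations within mice gave p = 0.25 for either measure, the smallest possible with 3 mice. With the inverse Simpson index in place of the effective number the ratio was 1.07, and monocytes were higher in 2 of 3 mice.

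Among barcodes at 0.1% or more, the share in monocytes tracked the share in neutrophils. Single barcodes were compared within each mouse among those with at least 0.1% of monocyte or neutrophil reads, 69, 55 and 47 in mice 1 to 3, as folds of the shares with 0.01% added to each. These folds compare 1 sample with 1 sample and have no test. Across these barcodes the log2 shares, also with 0.01% added, had a Pearson correlation of 0.943, 0.980 and 0.970 between monocytes and neutrophils in the 3 mice. The Spearman correlation of the shares was 0.920, 0.933 and 0.960. Barcodes of a mouse come from the same 2 libraries and are not replicates.

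Of these 171 barcodes, 147 lay within 2-fold and 164 within 4-fold of equal shares. In mouse 1 it was 48 of 69 within 2-fold, in mouse 2 it was 54 of 55, and in mouse 3 it was 45 of 47. All 24 barcodes outside 2-fold were higher in monocytes, 21 of them in mouse 1, 1 in mouse 2 and 2 in mouse 3. At 4-fold there were 7 higher in monocytes in mouse 1, which is 10.1% of its 69 barcodes, and 0 in mice 2 and 3 (0%). Among these barcodes none was over 4-fold higher in neutrophils in any of the 3 mice (0% in each). Their strongest tilt to neutrophils was 1.57-fold, 1.62-fold and 1.70-fold in mice 1, 2 and 3.

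**Figure D2:**
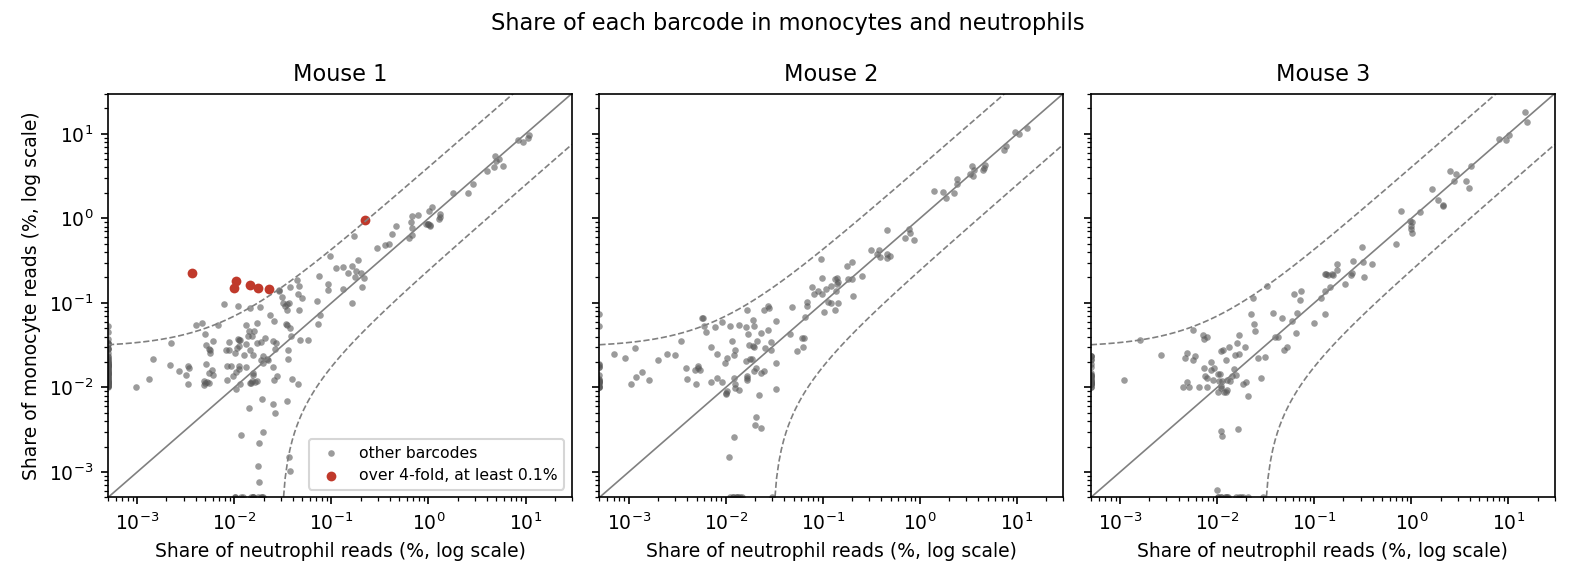
Share of monocyte reads (y axis, percent, log scale) against share of neutrophil reads (x axis, percent, log scale) of every barcode at 0.01% or more in either population, 1 panel per mouse. The solid line marks equal shares and the dashed lines a 4-fold difference with 0.01% added to each share, and values under 0.0005% are drawn at the edge. The 7 red points, barcodes over 4-fold higher in monocytes with at least 0.1% of reads, are all in mouse 1.

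The numbers over 4-fold to either side, 7, 0 and 0 to monocytes against 0, 0 and 0 to neutrophils, gave an exact permutation p of 1, and the count to monocytes was 0 without mouse 1. Mouse 1 also had the deepest monocyte sample (11436010 reads) and the shallowest neutrophil sample (6808221 reads). With all samples thinned to 6808221 reads there were 8 over 4-fold higher in monocytes, and they came from 2 of the 3 mice. At 2-fold the numbers were 21, 1 and 2 to monocytes against 0, 0 and 0 to neutrophils. Every mouse then had more to monocytes, with exact permutation p = 0.1, the smallest possible. This permutation treats both counts of a mouse as separate samples, although they come from the same 2 libraries. Sign flips within mice, which keep the pairs, cannot give a p below 0.25 and were not run at 2-fold.

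Agreement was closest for large clones and loosest for small ones. The numbers of sorted cells are not given in the labels, so how far the sampling of few cells spreads the shares of small clones was not tested. Clones were classed by the mean share over both populations. The 52 clones of 1% or more in the 3 mice were all within 2-fold, 49 of them within 1.5-fold, and 19 of the 52 were higher in monocytes. Their median log2 ratio of monocytes over neutrophils was -0.16, -0.08 and -0.06 in mice 1 to 3, a small shift to neutrophils in each. Among the 99 clones of 0.1% to 1% the medians were 0.48, 0.06 and -0.03, with 90 within 2-fold and 9 over 2-fold higher in monocytes. Among the 277 clones of 0.01% to 0.1% the medians were 1.001, 0.62 and 0.45. Of these small clones 107 were over 2-fold higher in monocytes and 15 over 2-fold higher in neutrophils, and 201 were higher in monocytes to any degree. Over 4-fold higher in monocytes were 20 of the 277, 16 of them in mouse 1 and 4 in mouse 2. Over 4-fold higher in neutrophils were 2 of the 277, both in mouse 1. The tilt to monocytes of small clones was thus present in all 3 mice and was greatest in mouse 1. Shares add to 100%, so a higher share of small clones in monocytes goes with a lower share of large ones. The clones of 1% or more held 74.6%, 85.6% and 85.6% of monocyte reads, against 82.1%, 87.1% and 86.5% of neutrophil reads.

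**Figure D3:**
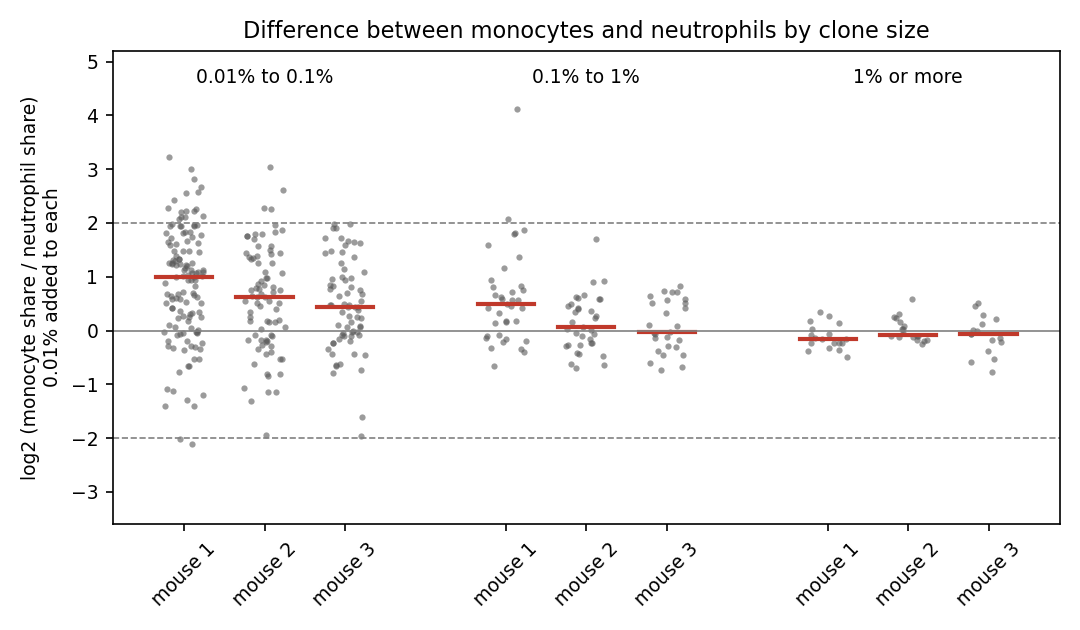
Log2 ratio of monocyte over neutrophil share with 0.01% added to each (y axis) for barcodes in 3 classes of mean share, with 1 column of points per mouse, red bars at the medians and dashed lines at 4-fold. Medians in the class of 0.01% to 0.1% are 1.001, 0.62 and 0.45, and points of the class of 1% or more lie near 0.

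Barcodes found in 1 population alone were more often monocyte barcodes. At 0.01% or more, 131, 100 and 84 barcodes were found in both populations in mice 1 to 3. Another 98, 48 and 50 were found in monocytes alone, and 25, 21 and 24 in neutrophils alone. They were small: the barcodes of monocytes alone together held 2.28%, 1.13% and 0.886% of monocyte reads, and those of neutrophils alone 0.471%, 0.331% and 0.339% of neutrophil reads. The largest of them had 0.227% of monocyte reads and 0.0374% of neutrophil reads, both in mouse 1. Of those in monocytes alone 68, 29 and 29 had more than 10 times their neutrophil share, and of those in neutrophils alone 16, 9 and 15 had more than 10 times their monocyte share.

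Most of these barcodes were also found in other populations of the mouse. Of the barcodes of monocytes alone, 75 of 98, 37 of 48 and 38 of 50 were at 0.01% or more in B cells (76.5%, 77.1% and 76%), against 91.6%, 86% and 89.3% of the barcodes found in both populations. In T cells it was 15.3%, 35.4% and 18% of those of monocytes alone, against 72.5%, 71% and 66.7% of those found in both. In renal M1 macrophages it was 20.4%, 25% and 16%, against 68.7%, 73% and 71.4%. In cardiac Ccr2lo macrophages it was 85.7%, 95.8% and 82%, against 93.1%, 92% and 90.5%. Barcodes found in both populations were larger on average, so the sets compared also differ in clone size. Of the barcodes of neutrophils alone, 22 of 25, 16 of 21 and 19 of 24 were in B cells, and 6, 1 and 7 in renal M1 macrophages. Barcodes found in no other population numbered 4, 1 and 3 for monocytes alone and 1, 3 and 1 for neutrophils alone. A barcode at this level can also come from another mouse: 6, 1 and 9 of the barcodes of monocytes alone, and 2, 6 and 1 of those of neutrophils alone, had a higher share in a sample of another mouse.

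Of the 7 barcodes over 4-fold higher in monocytes, 1d and 1e had a mean share of 0.1% to 1%, and the other five were small clones of 0.01% to 0.1%. The folds given for them have 0.01% added to each share and so are smaller than the ratios of the shares as printed. Barcode 1d held 0.958% of monocyte and 0.221% of neutrophil reads in mouse 1, a 4.18-fold difference just past the level. It ranked 21st among monocyte and 35th among neutrophil barcodes. The other six held 0.147% to 0.227% of monocyte reads and 0.00369% to 0.0230% of neutrophil reads. The largest fold was that of 1e, with 0.227% of monocyte and 0.00369% of neutrophil reads (25949 and 251 reads), a 17.3-fold difference. Barcode 1f had 0.181% of monocyte and 0.0104% of neutrophil reads, a 9.37-fold difference, and 1i had 0.151% of monocyte and 0.010003% of neutrophil reads, an 8.04-fold difference. Together the 7 held 1.98% of monocyte and 0.300% of neutrophil reads.

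By folds with the same addition to each share as above, 1k and 3d lay just under 4-fold. Barcode 1k had 0.141% of monocyte and 0.0289% of neutrophil reads (3.89-fold). In mouse 3 the barcode 3d had 0.160% of monocyte and 0.0330% of neutrophil reads (3.96-fold). Without that addition the printed shares of 1k and of 3d differ by more than 4-fold. In mouse 2 the most monocyte-tilted of the barcodes at 0.1% or more was 2d, with 0.333% of monocyte and 0.0957% of neutrophil reads (3.25-fold). Of the 7 barcodes of mouse 1, 1d (4.18-fold) and 1j (4.76-fold) lay nearest to 3d. On the side of neutrophils 1l had 0.0998% of monocyte and 0.163% of neutrophil reads, 2e had 0.121% of monocyte and 0.203% of neutrophil reads, and 3e had 2.29% of monocyte and 3.89% of neutrophil reads. Only 3e among these was a large clone, the 11th of monocytes and the 7th of neutrophils.

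The levels of the 7 barcodes in the 6 other populations had no part in choosing them. In renal M1 macrophages, whose barcodes resembled those of both blood myeloid populations, all 7 lay below their monocyte share, between 0.000112% and 0.291%. The 7 were chosen for a high monocyte share, and an M1 share below the monocyte share was common among all barcodes compared, in 24 of the 24 over 2-fold higher in monocytes and in 90 of the 147 within 2-fold. In T cells 5 of the 7 exceeded their monocyte share, in B cells 3, in cardiac Ccr2hi macrophages 3 and in renal M2 and cardiac Ccr2lo macrophages 2 each. How many of all barcodes compared exceeded their monocyte share was not counted for each of these populations. All 7 were at 0.01% or more in renal M2, cardiac Ccr2hi and cardiac Ccr2lo macrophages. So were 93.1%, 92.4% and 93.1% of the mouse 1 barcodes found in both monocytes and neutrophils, and 81.6%, 86.7% and 85.7% of those in monocytes alone.

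Their patterns were not of 1 kind. Barcodes 1e, 1f and 1i were at like levels in T cells, with 0.855%, 0.822% and 0.824% of reads, and in B cells, with 0.0732%, 0.0763% and 0.0640%. They lay further apart in M1 macrophages, with 0.0707%, 0.0358% and 0.0282% of reads, and in neutrophils. Their sequences were no near copies, since each of the 7 had at least 14 mismatches to the nearest other barcode of its mouse's comparison. Whether 1e, 1f and 1i came from the same founder cell was not tested. Barcode 1j was high in both lymphoid populations, at 1.28% in B cells and 0.935% in T cells, and had 0.00149% of M1 reads. Barcode 1d was highest in B cells (2.16%) and in cardiac Ccr2hi macrophages (1.85%). Barcode 1g was at like levels in monocytes (0.161%), B cells (0.214%) and T cells (0.187%) but had 0.000249% of M1 reads. Barcode 1h stood apart with 0.151% in monocytes, 0.00588% in B cells and 0.00176% in T cells, and it was the only 1 of the 7 with a higher share in another mouse, 0.313% of B cell reads in mouse 3. Without barcodes that were higher in another mouse, a setting chosen after seeing the data, 6 barcodes remained over 4-fold higher in monocytes.

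**Figure D4:**
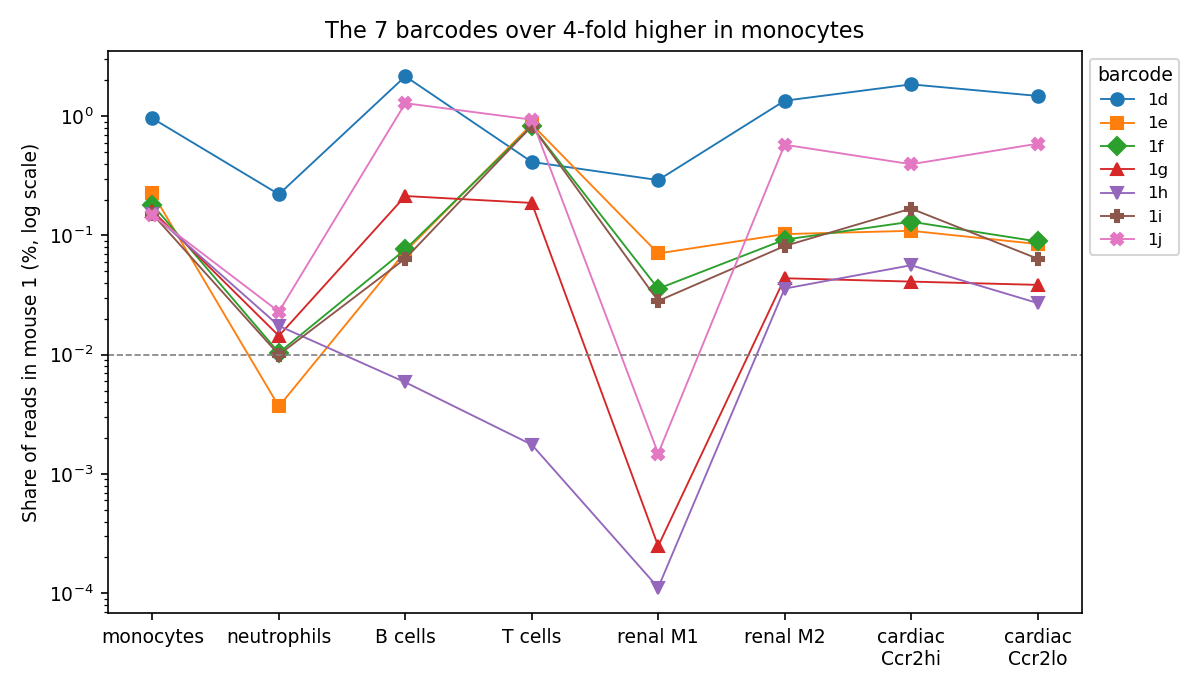
Share of reads in mouse 1 (y axis, percent, log scale) of the 7 barcodes over 4-fold higher in monocytes than in neutrophils, in each of the 8 populations (x axis), with 1 marker and line per barcode and a dashed line at 0.01%. All 7 lie lower in neutrophils and in renal M1 macrophages than in monocytes, and 5 of the 7 are higher in T cells than in monocytes.

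Levels in lymphoid cells differed with the tilt to monocytes in mouse 1, and not in the same way in B and T cells. In mouse 1 the median T cell share was 0.642% for the 21 barcodes over 2-fold higher in monocytes and 0.0465% for the other 48, whereas the median B cell share was 0.151% for the 21 and 0.266% for the 48. The median M1 share was 0.0232% for the 21 and 0.644% for the 48. In mouse 2 the T cell share ran the other way, at 0.0352% for the 1 tilted barcode against a median of 0.208% for the other 54. In mouse 3 it ran as in mouse 1, with medians of 0.0951% for the 2 tilted barcodes and 0.0588% for the other 45. The B cell share of tilted barcodes was the lower in mouse 1 only. It was 0.305% against 0.230% for the others in mouse 2, and 0.721% against 0.154% in mouse 3. A B or T cell share above the monocyte share was found in 18 of 21 tilted barcodes in mouse 1, 0 of 1 in mouse 2 and 2 of 2 in mouse 3, against 15 of 48, 18 of 54 and 11 of 45 of those within 2-fold. The tilted barcodes were also smaller, with a median monocyte share in mouse 1 of 0.153% against 0.845% for the others. Barcodes of like size were not compared, so tilt and clone size cannot be told apart in these counts. The tilt itself went with clone size, with a Spearman correlation between the log2 ratio and the mean share of -0.73, -0.20 and -0.41 in mice 1 to 3. Across the barcodes of a mouse the log2 ratio of monocytes over neutrophils had a Spearman correlation with the log2 ratio of the mean B and T cell share over the M1 share of 0.631, 0.321 and 0.490 in mice 1 to 3 (69, 55 and 47 barcodes of the same libraries). The neutrophil and M1 shares by which these ratios divide resembled each other. The correlation therefore cannot separate a high lymphoid share from a low M1 share. Barcodes common in lymphoid cells were not all common in monocytes or neutrophils. In mouse 1 a barcode with 1.35% of T cell reads had 0.00101% of monocyte reads, 0.000750 times as much, the lowest ratio among the 57 barcodes at 0.5% or more in T cells. The lowest ratio to B cells was 0.00442 among 43 barcodes. For neutrophils of mouse 1 the lowest ratios were 0.00125 to T cells and 0.00856 to B cells.

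The overlap of 2 samples adds up, barcode by barcode, the lower of both shares, and runs from 0 for separate to 1 for identical repertoires. Monocytes and neutrophils of the same mouse overlapped by 0.888, 0.928 and 0.904 in mice 1 to 3, and any 2 of the 6 samples from different mice by 0.00842 to 0.0130. The overlap with renal M1 macrophages was of the same size, at 0.856, 0.918 and 0.912 for monocytes and 0.888, 0.905 and 0.871 for neutrophils. Monocytes with neutrophils exceeded monocytes with M1 macrophages by 0.0115 on average (SD 0.0194, exact permutation p = 0.7, 2 of 3 mice) and neutrophils with M1 macrophages by 0.0186 (SD 0.0171, exact permutation p = 0.5, 2 of 3 mice). The overlaps compared share samples, and with 3 mice a p of this size does not show that the pairs overlapped alike.

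Single barcodes differed in how the 3 pairs compared. Between monocytes and neutrophils 69.6%, 98.2% and 95.7% of the barcodes at 0.1% or more in either lay within 2-fold, in mice 1 to 3. Between monocytes and M1 macrophages it was 57.1%, 80.8% and 73.9%, and between neutrophils and M1 macrophages 79.2%, 84.0% and 72.1%. In mouse 1 monocytes had 20 of 70 barcodes over 4-fold above M1 macrophages and 7 of 69 over 4-fold above neutrophils. Neutrophils had 0 of 53 over 4-fold above M1 macrophages. The other way, 1 barcode was over 4-fold higher in M1 macrophages in each M1 pair. The sets differ between the pairs, since each holds the barcodes at 0.1% or more in either population. By these counts monocytes of mouse 1 stood apart from both other myeloid samples of that mouse. By overlap they did not stand apart from neutrophils, at 0.888 against 0.888 for neutrophils with M1 macrophages.

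The other populations overlapped slightly more with monocytes than with neutrophils. The overlap with B cells was 0.395, 0.408 and 0.338 for monocytes of mice 1 to 3, against 0.344, 0.375 and 0.330 for neutrophils, a mean difference of 0.0312 (SD 0.0213, exact permutation p = 0.3). With T cells it was 0.219, 0.380 and 0.196 for monocytes, against 0.190, 0.367 and 0.190 for neutrophils, a mean difference of 0.0161 (SD 0.0120, exact permutation p = 0.5). Monocytes were higher in 3 of 3 mice for both lymphoid populations, and mouse 1 had the largest difference each time.

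The same held for 3 of the 4 macrophage populations. The mean difference was 0.0247 for renal M2 macrophages (exact permutation p = 0.7), 0.0267 for cardiac Ccr2hi macrophages (exact permutation p = 0.5) and 0.0255 for cardiac Ccr2lo macrophages (exact permutation p = 0.6), each with monocytes higher in 3 of 3 mice. With the Morisita-Horn index in place of this overlap, monocytes were higher in 3 of 3 mice for B cells and renal M2 macrophages but in 2 of 3 for T cells and both cardiac populations. The overlap with Ccr2hi macrophages was 0.272, 0.429 and 0.227 for monocytes, against 0.219, 0.411 and 0.219 for neutrophils. For renal M1 macrophages the difference was 0.00713 (SD 0.0363, exact permutation p = 0.8), and monocytes were lower in mouse 1, by -0.0315, and higher in mice 2 and 3. Exact sign-flip permutations within mice gave p = 0.25, the smallest possible, for each population but M1 macrophages (p = 0.75). The mean difference exceeded the SD of the 3 within-mouse differences for B cells, T cells, renal M2 macrophages (SD 0.0197), Ccr2hi macrophages (SD 0.0238) and Ccr2lo macrophages (SD 0.0202), but not for M1 macrophages.

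**Figure D5:**
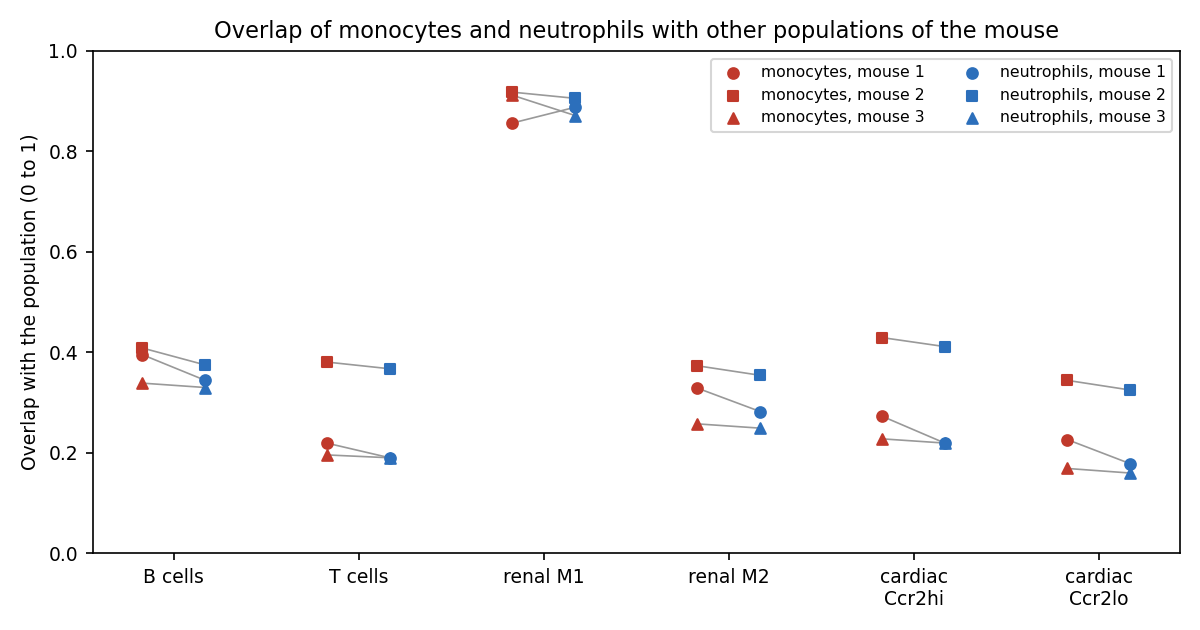
Overlap (y axis, from 0 to 1) of monocytes (red, left) and neutrophils (blue, right) with each of 6 other populations of the same mouse (x axis), with 1 marker shape per mouse and grey lines that join the samples of a mouse. Lines slope down from monocytes to neutrophils in 3 of 3 mice for every population but renal M1 macrophages, where mouse 1 goes the other way.

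A test of single barcodes across the 3 mice was limited by the mice having few barcodes in common. With edgeR's quasi-likelihood test without a block, 1 of 724 barcodes (0.138%) had an adjusted p under 0.05, against 43 at an unadjusted p under 0.05. Of the 724, 23 reached 0.01% in more than 1 mouse and 413 in 1 mouse. The barcode called was at trace level, with 5, 7 and 5 reads in monocytes of mice 1 to 3 against 10, 165 and 10 reads in neutrophils (log2 fold change -3.62, edgeR adjusted p = 0.00747), and it was lost with the mouse as a replicate block (0 of 724 called, 0%, 17 at an unadjusted p under 0.05). The fitted common dispersion was 2.69 without the block and 0.488 with it. In counts simulated for this comparison with a lower dispersion, 0.05, the test without a block recovered 0% of 120 barcodes changed 4-fold, so the count without the block says little on barcodes of single mice. A barcode of 1 mouse has 1 sample of each population, so no replicated test of the 7 barcodes was possible.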

How the data were processed

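Barcodes in genomic DNA of 24 sorted samples had been amplified in 18 PCR cycles and indexed in 9 to 11 more, per the labels' protocols. The authors deposited whole-number read counts per distinct barcode sequence, 1 file per sample, not normalised; trimming, filtering and counting of reads are not given in the sources used here. Samples were grouped by title. Same-numbered samples came from 1 mouse, and their deviations from the group means correlated with r = 0.983, 0.993 and 0.991 in mice 1 to 3, so the numbers pair the samples. No 2 of the 6 files were alike within sampling noise (lowest chi-square per degree of freedom 83.4).

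Counts were divided by file totals. Barcodes at 0.1% or more in either population entered the folds, with 0.01% added to both shares. Summary measures were tested by exact two-sided permutation (Python 3.11.15, numpy 2.4.6, pandas 2.3.3, scipy 1.17.1), with 13 tests adjusted by Benjamini-Hochberg. Single barcodes were tested with edgeR 4.0.16 in R 4.3.3 (TMM, filterByExpr, quasi-likelihood test) and DESeq2 1.42.0 as an alternative. Scripts were tested on simulated data. In simulations of monocytes over neutrophils with dispersion 0.05, edgeR without the block recovered 0% and with the block 100% of 120 barcodes changed 4-fold, among 721 tested, with 3 false calls with the block. The fitted common dispersion of the deposited counts was 2.69 without and 0.488 with the block, so these rates do not describe the real comparison.

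Named barcodes were, per mouse, the 3 with the highest mean share, and up to 3 over 4-fold higher in monocytes or in neutrophils with the highest share there. The barcodes called by edgeR were to be named as well, up to 5 in each direction. The comparison, barcodes and lists were chosen with earlier results of these data known. Alternatives covered depth, merging of barcodes 1 mismatch apart, low counts, reads shared between mice, the base pattern, thresholds, each mouse left out and pairing.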

Additional observations from a re-analysis of the deposited data

How the results depend on the processing

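Of the 13 tests none passed a threshold of 0.05 under any alternative, and the smallest p was 0.1. The difference in the number over 4-fold skewed became 0 without mouse 1 and with 0.1% added to the shares, and the other directions were kept except without mouse 3, where the difference in the most abundant barcode became -1.04 percentage points and that in overlap with renal M1 macrophages -0.00958. With the Morisita-Horn index the mean differences kept their sign, but monocytes were higher in 2 of 3 mice rather than 3 of 3 for overlap with T cells and both cardiac populations. Monocytes were also higher in 2 of 3 mice for diversity by the inverse Simpson index and for barcodes at 0.001% or more. Pairing by mouse (sign flips) changed no call. With each mouse left out in turn the ratio of barcode numbers was 1.23 to 1.35, the ratio of effective numbers 1.07 to 1.22, the difference in the most abundant barcode -1.04 to 0.763 percentage points, the difference in overlap with M1 macrophages -0.00958 to 0.0265, and the number of barcodes over 4-fold higher in monocytes 0 to 7. Without mouse 1 that number was 0. It was 24 at 2-fold, 3 at 8-fold, 12 with 0.001% added to the shares, 0 with 0.1% added, 16 among barcodes at 0.05% or more and 1 among those at 0.5% or more. Barcodes over 4-fold higher in monocytes were not confined to mouse 1 in every setting. They came from 2 of 3 mice after thinning, with only the alternating pattern, with 0.001% added and at 0.05% or more. Across 15 alternatives, all among barcodes at 0.05% or more, the number over 4-fold higher in neutrophils was 0.

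The 1 barcode called by edgeR without a block was lost with the replicate block (0), with no filter (0), with at least 10 reads in at least 2 samples (0), with DESeq2 (0) and with each mouse left out (0 to 0). With the block the count was 0 among barcodes at 0.1% or more and 1 of 3776 with at least 10 reads in at least 2 samples, both added after the values were seen. That barcode passed the filter through its monocyte reads alone, so its call is no support. The lowest share taken as presence rests on 681 reads, which bounds counting error only: the number of cells behind them is not known.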

Other observations

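One barcode was found in monocytes of 2 mice and hardly in neutrophils. It was chosen after its values were seen, and it passed a filter of at least 10 reads in at least 2 samples through its monocyte reads alone, so it is given as values with no test.
x2: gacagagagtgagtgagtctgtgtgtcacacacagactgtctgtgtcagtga
It held 2600, 1 and 1534 reads in monocytes of mice 1 to 3, or 0.0227%, 1.04e-05% and 0.0150% of reads, against 0, 0 and 1 reads in neutrophils. Its highest share elsewhere was 0.00977%, in renal M2 macrophages of mouse 2, and it had 0.00251% of T cell reads in mouse 2 and 0.00168% of B cell reads in mouse 1.

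The barcode that edgeR called without a block, with 165 neutrophil reads in mouse 2, held 0.134% of renal M2, 0.0735% of cardiac Ccr2hi and 0.0890% of cardiac Ccr2lo macrophage reads in that mouse, against 7.25e-05% of monocyte reads.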
